A study of Mus musculus with 60 samples.

Results

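The 6 genes described here encode G protein-coupled receptors and are grouped as receptors that set the level of cyclic AMP (cAMP) in fat cells. They are Adrb1, Adrb3, Hcar1, Hcar2, Ffar4 and Adora1. They were taken by name from a count table of 55011 mouse genes, of which 44386 had a count in at least 1 library, and all 6 were found. They were followed through 52 RNA-seq libraries of whole fat in 16 groups, 38 from interscapular brown adipose tissue (BAT) in 12 groups and 14 from subcutaneous adipose tissue (SAT) in 4 groups. All mice were 8-week-old males. In 6 DTR- and 7 DTR+ groups the strain was B6.Foxp3.DTR and the toxin label was DT, diphtheria toxin, so that DTR- controls had received it too. Those groups were D4 (4 libraries per genotype in each depot) and D3 (3 per genotype in each depot, with PBS in the titles). The others, of 3 libraries each, were BAT of DTR- mice given PBS, and BAT of DTR- and of DTR+ mice given CL. They also included BAT of DTR+ mice that received either anti-IFNg, which blocks interferon gamma, or an isotype control antibody. The PBS group below is the one without D3 in its titles. In DTR+ mice the toxin receptor is made by Foxp3-expressing cells, so that the toxin can remove regulatory T (Treg) cells. The labels give CL with no further name, and it is read here as CL-316243, which activates the beta-3 adrenergic receptor. Another 2 BAT groups of 3 came from wild-type C57BL/6J mice given PC61, an antibody against CD25, or an isotype control antibody. The last group, 3 BAT libraries from mice kept at 4 degrees, carried the strain B6.Foxp3.DTR, the genotype label DTR- (WT in the titles) and the treatment PBS with no toxin. Cold, toxin and experiment therefore cannot be told apart in comparisons with that group. What D3 and D4 stand for, and how many doses of toxin, CL or antibody were given, is not given in the sources used here.

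Noradrenaline and adrenaline act on fat cells through beta-adrenergic receptors, which couple to the stimulatory G protein Gs and raise cAMP. The cAMP activates protein kinase A, which starts lipolysis and, in brown fat, heat production. Adrb3 encodes the beta-3 receptor, the main beta-adrenergic receptor of mature mouse adipocytes, and Adrb1 encodes the beta-1 receptor. Opposing receptors couple to the inhibitory protein Gi and lower cAMP: Adora1 encodes the adenosine A1 receptor, Hcar1 the lactate receptor and Hcar2 the receptor for beta-hydroxybutyrate and niacin, which macrophages and neutrophils also carry. Ffar4 encodes a receptor for long-chain fatty acids, also called GPR120, which is known for signalling through Gq and beta-arrestin and is made by both adipocytes and macrophages.

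Libraries held between 3007241 and 9673342 counts, with a median of 6123857. Levels are given as CPM, read counts brought to a common library total with TMM factors over the whole-fat libraries, and group levels are means ± SD over libraries. No library was a copy of another: in the 60 replicate pairs of whole fat, chi-square over its degrees of freedom ran from 7.741 to 41.209. Nothing in the labels states that each replicate is its own animal, so the p-values reflect only the spread among these libraries, part of which may be technical. Adipocyte markers were present in every whole-fat group, brown adipocyte markers were higher in BAT (8 of 8 genes in the D4 controls), and white adipocyte markers were lower there (7 of 8). The 4 Treg cell markers summed to no more than 14.7 CPM in any whole-fat library, and Foxp3 was at 0 in whole groups, so these libraries give no direct check of depletion. The PBS library numbered 3 stood apart, with 4863 CPM summed over 8 IFNg response genes against 253 in the lowest library of its group. In D4 SAT, DTR- library 3 was highest of its group in B cell (217 CPM) and T and NK cell markers (155 CPM), and DTR+ library 3 in skeletal muscle genes (2298 CPM). Skeletal muscle genes ranged from 2.57 to 6507 CPM over the BAT libraries. In whole tissue, fewer cells of a type and less RNA per cell cannot be told apart.

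The genes lie on 4 chromosomes of mm10. Adrb1 is at 19:56722199-56733113 (+), Ffar4 at 19:38097071-38114263 (+), Adrb3 at 8:27225776-27250616 (-) and Adora1 at 1:134199223-134235431 (-). Hcar1, at 5:123876736-123880020 (-), and Hcar2, at 5:123863570-123865499 (-), are related genes that lie 11.2 kb apart. Reads shared between the 2 could have been split or lost in counting, since the handling of reads with several matches is not given in the sources used here. Adrb3 overlaps an antisense gene, Gm45470, with 2240 counts over whole fat against 104884 for Adrb3, and Adora1 overlaps Mybph on the opposite strand, with 161 counts against 36115. The strand setting is not given either, so reads of such partners cannot be told apart.

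Promoters are shown for the 4 members whose start sites are in the RefSeq table of GRCm38.p6, because Hcar1 and Adora1 fell with CL while Ffar4 rose and Adrb1 did not pass the test. Each run is the 250 bases before the start, read 5′ to 3′ along the gene, and capitals mark the single motif match. Their positions are 5:123880004-123880253 for Hcar1, 1:134235458-134235707 for Adora1 (the farther upstream of 2 starts), 19:38096829-38097078 for Ffar4 and 19:56721867-56722116 for Adrb1.
Hcar1: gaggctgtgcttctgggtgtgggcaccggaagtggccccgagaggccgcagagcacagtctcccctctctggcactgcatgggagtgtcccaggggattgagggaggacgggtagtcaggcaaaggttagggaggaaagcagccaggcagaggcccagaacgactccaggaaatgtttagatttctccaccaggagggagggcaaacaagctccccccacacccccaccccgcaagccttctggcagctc
Adora1: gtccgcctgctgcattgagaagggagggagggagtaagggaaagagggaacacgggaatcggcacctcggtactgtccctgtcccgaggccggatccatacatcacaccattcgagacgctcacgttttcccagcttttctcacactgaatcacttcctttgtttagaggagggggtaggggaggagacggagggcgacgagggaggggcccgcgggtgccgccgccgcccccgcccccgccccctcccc
Ffar4: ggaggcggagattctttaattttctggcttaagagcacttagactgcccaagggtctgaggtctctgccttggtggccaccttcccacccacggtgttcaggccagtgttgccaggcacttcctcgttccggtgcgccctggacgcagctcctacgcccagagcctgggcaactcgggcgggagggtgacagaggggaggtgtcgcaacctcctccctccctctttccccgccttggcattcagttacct
Adrb1: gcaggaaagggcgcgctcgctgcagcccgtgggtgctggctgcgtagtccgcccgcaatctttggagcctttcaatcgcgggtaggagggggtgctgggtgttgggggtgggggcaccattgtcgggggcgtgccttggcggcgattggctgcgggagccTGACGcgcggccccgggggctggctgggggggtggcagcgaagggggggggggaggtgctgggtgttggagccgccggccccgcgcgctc

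All 4 promoters were rich in G and C, from 61.2% in Ffar4 and 62.4% in Hcar1 through 64.4% in Adora1 to 74.0% in Adrb1. Both strands were searched for the cAMP response element TGACGTCA, its core TGACG (which lies inside the full element), the nuclear receptor core AGGTCA and the IFNg-activated element TTCNNNGAA. The 1 match was TGACG in Adrb1, 90 bases before the start. Over 32851 promoters of the same length, 17.8% held TGACG, 1.55% held TGACGTCA, 14% held AGGTCA and 7.02% held TTCNNNGAA. A match is a description of the letters, and an absent match says only that they are not in this window. Adrb3 and Hcar2 are named only.

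Per kb of exon, Adrb3 was the most abundant of the 6 in 12 of the 16 groups and Ffar4 in the other 4, while Adrb1 was lowest in 13. In BAT of D4 DTR- mice, mean CPM per kb was 99.4 for Adrb3, 33.3 for Adora1, 28.4 for Ffar4, 25.4 for Hcar1, 9.99 for Hcar2 and 1.89 for Adrb1. In SAT of D4 DTR- mice Adrb3 stood at 123 CPM per kb, followed by Hcar1 at 48.7 and Hcar2 at 36.8. In DTR- BAT of the PBS group Ffar4 was at 71.0 CPM per kb and Adrb3 at 63.7, and with CL they were at 329 and 15.2. At 4 degrees Ffar4 was at 157 and Adrb3 at 77.3 CPM per kb.

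**Figure D1:**
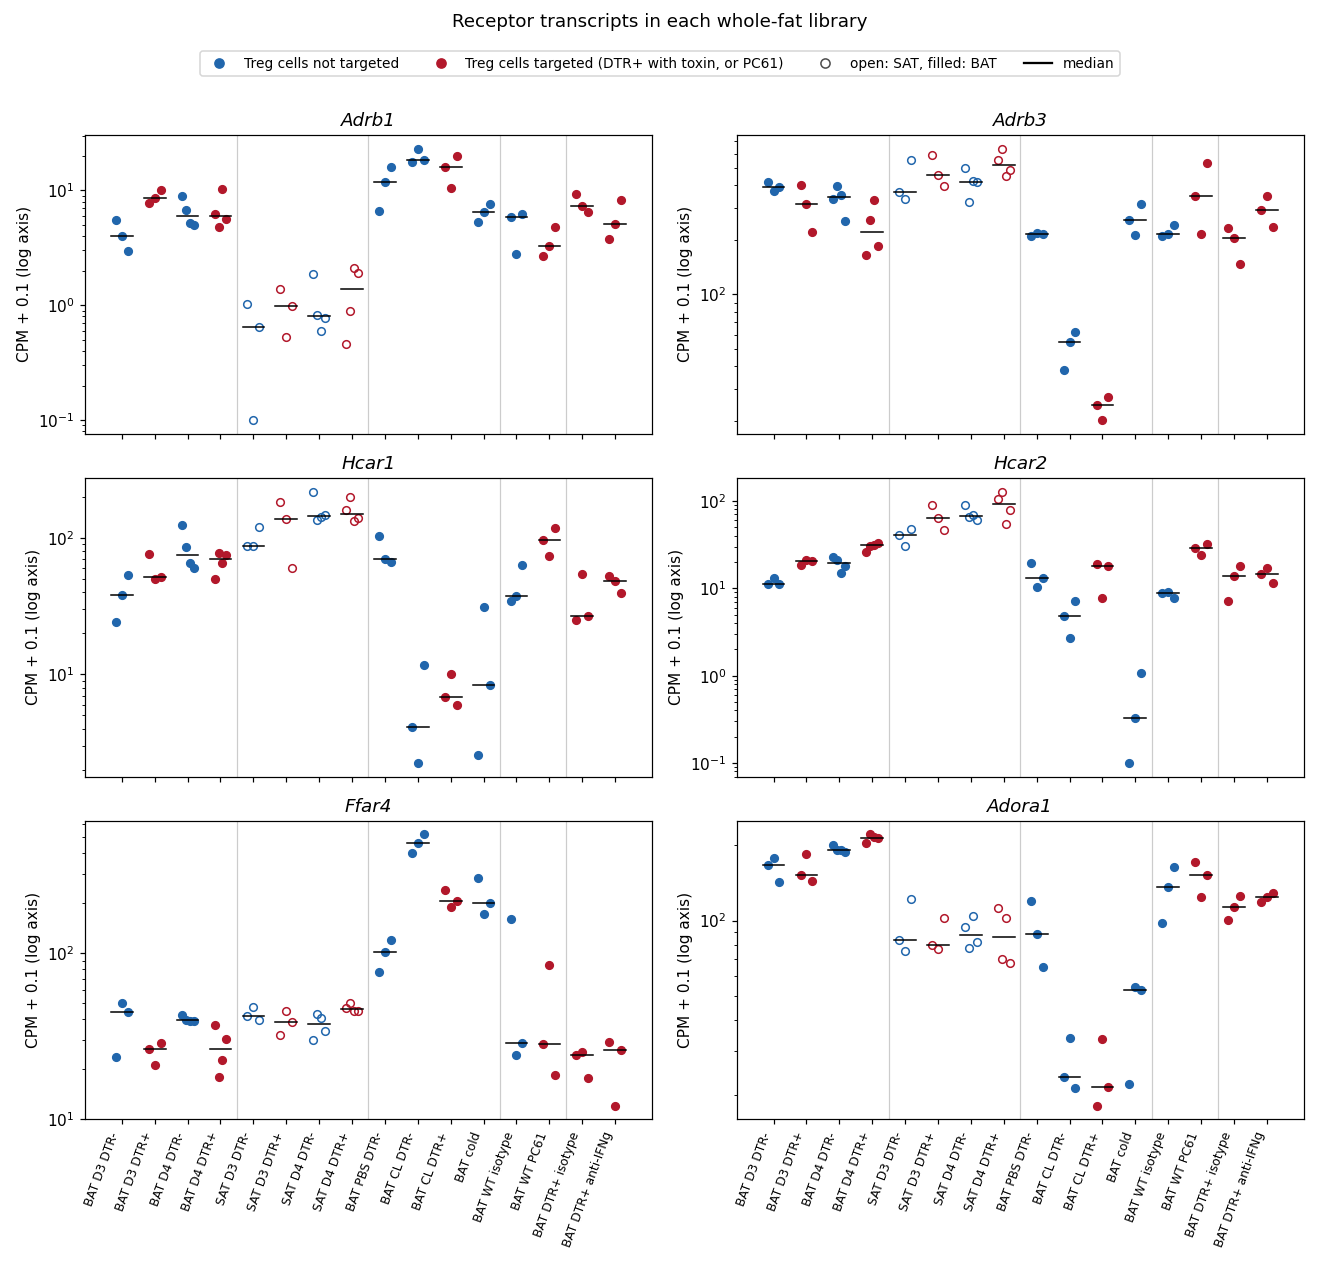
CPM plus 0.1 (log axis) of each receptor, 1 panel per gene, with a point for each whole-fat library by group along the horizontal axis (open for SAT, red where Treg cells were targeted) and a bar for the group median. Adrb3 sat at 20.1 to 61.5 CPM in the CL libraries and at 147 or more elsewhere, and Ffar4 was highest in the CL libraries of DTR- mice, at 403 to 519.

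The spread over groups differed between members. From the lowest to the highest group mean, CPM varied 227-fold for Hcar2, 40.2-fold for Adrb1, 26.9-fold for Hcar1, 22.4-fold for Adrb3, 20.7-fold for Ffar4 and 8.76-fold for Adora1. For Hcar2 the lowest group was cold BAT (0.404 ± 0.515 CPM) and the highest D4 DTR+ SAT (91.6 ± 31.7). For Adrb1 the lowest was D3 DTR- SAT (0.488 ± 0.461) and the highest CL DTR- BAT (19.6 ± 2.94).

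Most neighbours in these orders overlapped. Of the 15 steps between successive group means, ranges did not overlap in 4 for Hcar2, 3 for Adora1, 2 each for Adrb3 and Ffar4, 1 for Adrb1 and 0 for Hcar1. Such steps were not counted for other genes, so whether any of these counts is unusual cannot be said. The 1 clear step of Adrb1 lay between all 12 BAT groups and all 4 SAT groups. Those of Adrb3 set CL DTR- BAT and then CL DTR+ BAT below the other 14 groups. Ffar4 had its steps below CL DTR- BAT and below CL DTR+ BAT, with cold BAT between and overlapping the latter. Adora1 led in D4 DTR+ and D4 DTR- BAT, each apart from the next group, and cold and CL BAT lay below the rest.

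Depots were compared in DTR- mice, which asks how brown and subcutaneous fat differ when Treg cells are left in place. BAT held more Adrb1 and Adora1 and less Hcar1 and Hcar2 than SAT, in both the D4 and the D3 libraries, while Adrb3 and Ffar4 did not pass the test in either. In D4, 4 of 6 members were called at an adjusted p under 0.05 by edgeR's quasi-likelihood test, against 48.9% of all genes tested, and in D3 4 of 6, against 46.4%. Calls were that common among all genes.

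Adrb1 was at 8.76, 6.68, 5.15 and 4.94 CPM in D4 BAT and at 1.79, 0.721, 0.50 and 0.678 in D4 SAT. Every BAT library was above every SAT library. The log2 fold change was 2.75 ± 0.51 (SE, edgeR adjusted p = 0.00014), a 6.72-fold difference, and in D3 2.90 ± 0.62 (adjusted p = 0.00079), or 3.66 without SAT library 1. With 26 to 46 counts over all 4 libraries of a D4 SAT group, Adrb1 was close to its detection limit there.

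Hcar2 was the member with the clearest deficit in BAT. It was at 23.0, 21.3, 15.0 and 17.8 CPM in D4 BAT and at 89.0, 64.7, 69.4 and 61.1 in D4 SAT. No library of BAT reached any of SAT, and the log2 fold change was -1.90 ± 0.21 (edgeR adjusted p = 2.9e-07), or 3.73-fold lower. In D3 it was -1.74 ± 0.23 (adjusted p = 5.6e-06).

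Hcar1, its neighbour on the chromosome, differed less, at 123, 84.9, 65.2 and 60.2 CPM in D4 BAT against 217, 135, 142 and 146 in SAT. The log2 fold change was -0.96 ± 0.21 (edgeR adjusted p = 0.0011) in D4, and in 1 fit over all whole-fat libraries its adjusted p was 0.054. In D3 it was -1.32 ± 0.42 (adjusted p = 0.029), and that call was lost in 6 of 13 alternative settings, 5 of them the omission of 1 control library (adjusted p from 0.05 to 0.091). Ranges of Hcar1 did not overlap in D3, at 24.0, 38.0 and 53.4 CPM in BAT and 87.1, 86.7 and 121 in SAT, with BAT the lower.

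Adora1 was at 200.1, 191, 191 and 188 CPM in D4 BAT and at 93.9, 77.5, 105 and 81.9 in D4 SAT. BAT was higher throughout and tight, and the log2 fold change was 1.09 ± 0.14 (edgeR adjusted p = 1.3e-06), 2.13-fold. In D3 it was 0.81 ± 0.16 (adjusted p = 0.00057), and with library totals in place of TMM factors 0.35 (adjusted p = 0.067). Total scaling moved the median of all genes by -0.44 (D4) and -0.45 (D3) on the log2 scale. On that scale D4 Adrb3 became -0.77 (adjusted p = 0.0037), against -0.33 ± 0.20 (adjusted p = 0.18) with TMM.

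Of the other receptors that couple to Gs (a list of 11, 8 tested), 2 were higher and 4 lower in D4 BAT. The lower ones included Tshr, the thyrotropin receptor (-2.79 ± 0.22, edgeR adjusted p = 1.1e-08), and Mc2r, the corticotropin receptor (-2.97 ± 0.30, 4.3e-08). Among other Gi-coupled receptors 1 of 5 was higher and 3 lower, led by Ffar2, a receptor for short-chain fatty acids (-5.60 ± 0.42, 3.2e-08), and Cnr1, the cannabinoid receptor (-4.38 ± 0.45, 6.8e-08). Of 6 phosphodiesterases, which break down cAMP, 5 were higher and 0 lower in BAT, led by Pde4a at 3.03 ± 0.23 (1.8e-09). Their median log2 fold change was 1.18, against -0.06 over all genes. Macrophage markers were lower in BAT in 11 of 11 genes (144 to 354 CPM summed against 890 to 2281), and their part in the Hcar2 difference was not tested.

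CL was compared with PBS in BAT of DTR- mice to see what direct activation of the beta-3 receptor does. The receptor's own transcript fell, the 3 Gi-coupled receptors fell with it, and Ffar4 rose. In all 5 of 6 members were called, against 28.1% of all genes tested, and the median of the 6 log2 fold changes was -1.58, against -0.03 over all genes.

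Adrb3 stood at 210.1, 219.6 and 216 CPM with PBS and at 38.1, 54.3 and 61.5 with CL. The groups were far apart and PBS varied little. The log2 fold change was -1.97 ± 0.20 (edgeR adjusted p = 1.3e-05), 3.92-fold lower. Adrb1, the other beta receptor of the 6, went from 6.52, 11.6 and 15.99 to 17.4, 23.0 and 18.5 CPM. Its ranges did not overlap either, but at 0.87 ± 0.37 it did not pass (adjusted p = 0.095). Without PBS library 3, which stood apart in IFNg response genes, it was 1.21 (adjusted p = 0.047).

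Hcar1 had the largest change among the members, from 102, 69.6 and 66.6 CPM with PBS to 3.99, 2.15 and 11.7 with CL. All CL libraries lay well below all PBS libraries, and the log2 fold change was -3.55 ± 0.47 (edgeR adjusted p = 0.00014), 11.7-fold lower. Without CL library 3 it was -4.65 (adjusted p = 1.5e-05). Hcar2 went from 19.6, 10.2 and 13.2 to 4.72, 2.57 and 7.11 CPM, again without overlap. Its -1.45 ± 0.46 (adjusted p = 0.031) passed narrowly. The call was lost without CL library 1 (adjusted p = 0.084) or 2 (0.11) and without PBS library 1 (0.13) or 3 (0.052). Macrophage markers were lower with CL too in 5 of 11 genes, at 158 to 174 CPM summed against 273 to 712, and their part in the Hcar2 fall was not tested.

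Adora1 fell from 119.8, 88.3 and 65.3 CPM to 23.6, 33.9 and 21.3. The ranges stood apart and the log2 fold change was -1.70 ± 0.30 (edgeR adjusted p = 0.0011), 3.25-fold lower. Ffar4 moved the other way, from 76.7, 101 and 120.3 to 403, 463 and 519 CPM. Each of these CL libraries was above every other whole-fat library, and the log2 fold change was 2.30 ± 0.20 (adjusted p = 2.5e-06), 4.93-fold higher. Summed adipocyte markers were at 20450 to 21213 CPM with PBS and 21332 to 26499 with CL.

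Genes downstream of the receptors were called as well. Of 6 phosphodiesterases 2 rose and 0 fell: Pde4d, which is induced by cAMP in many cells, went from 62.9 ± 12.1 to 616 ± 168 CPM (log2 fold change 3.38 ± 0.22, edgeR adjusted p = 3e-07), and Pde4b rose by 1.91 ± 0.31 (adjusted p = 0.00055). Among 13 G proteins and adenylyl cyclases 4 rose and 2 fell, with Adcy3, an adenylyl cyclase, at 1.83 ± 0.22 (adjusted p = 4.9e-05). Of 13 genes of protein kinase A and lipolysis 4 rose and 1 fell. Plin1, the perilipin that guards the lipid droplet and is phosphorylated by protein kinase A, rose by 1.99 ± 0.24 (adjusted p = 5.4e-05). Of 9 other Gs-coupled receptors tested, only Adora2a, an adenosine receptor that raises cAMP, rose (2.22 ± 0.56, adjusted p = 0.0092) and 0 fell. Of 6 receptor kinases and arrestins 0 passed.

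**Figure D2:**
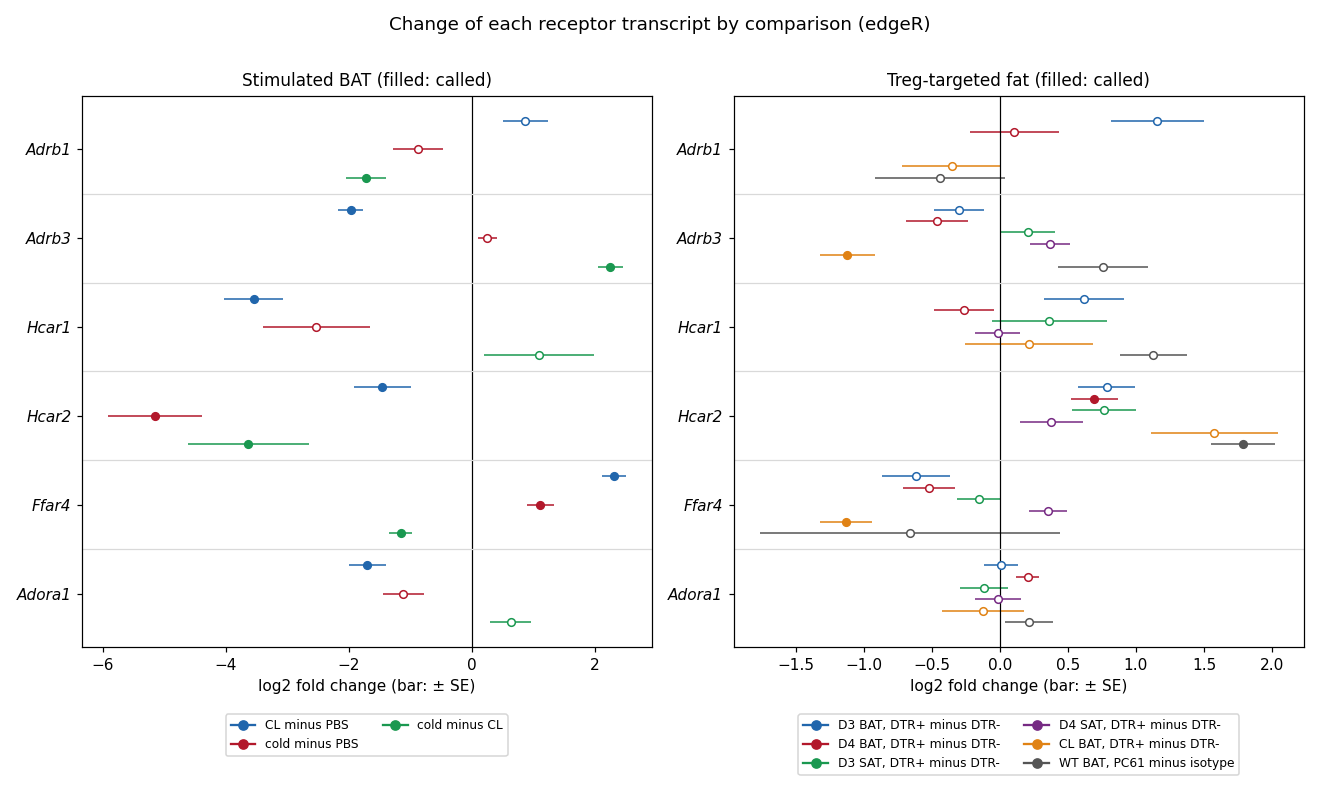
Log2 fold change (horizontal axis, bars for SE) of each receptor by edgeR, with CL and cold in 1 panel and Treg-targeted fat in the other, filled where the adjusted p was under 0.05. The widest called values are Hcar2 at -5.15 for cold against PBS, Hcar1 at -3.55 for CL against PBS and Hcar2 at -3.63 for cold against CL.

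Cold BAT was compared with the PBS group. D3 DTR- BAT, with PBS in its titles too, is another possible control by label and is used further below. Hcar2 was almost absent at 4 degrees and Ffar4 was higher, while Adrb3 overlapped between the groups. Of the 6 members 2 were called, against 8.66% of all genes. In Hcar2, 0, 0.230 and 0.984 CPM in cold BAT rested on 0, 2 and 7 counts, against 19.6, 10.2 and 13.2 CPM with PBS. All cold libraries were at or below 1 CPM, and the log2 fold change was -5.15 ± 0.76 (edgeR adjusted p = 0.0028), 35.4-fold lower. With 9 counts in the group, that size is known only roughly. Without cold library 3 it was -6.69 (adjusted p = 0.0075). Macrophage markers summed to 207 to 260 CPM in the cold and 273 to 712 with PBS, without overlap, with 1 of 9 genes lower and none of the 11 at 0, and their part in the Hcar2 fall was not tested.

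Ffar4 was at 285, 172 and 201 CPM in the cold and at 76.7, 101 and 120.3 with PBS. The groups did not overlap and Ffar4 rose by 1.11 ± 0.21 (edgeR adjusted p = 0.010), 2.16-fold. In 1 fit over all whole-fat libraries its adjusted p was 0.063. Hcar1 was at 2.45, 31.0 and 8.29 CPM, with cold library 2 the highest, and all 3 lay below PBS (102, 69.6 and 66.6). At -2.53 ± 0.87 it did not pass (adjusted p = 0.16), and without cold library 2 it was -3.92 (adjusted p = 0.0041). Adora1, at 22.1, 54.2 and 52.5 CPM, was likewise below PBS without overlap (-1.11 ± 0.34, adjusted p = 0.075).

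Adrb3 was at 256, 212 and 314 CPM in the cold, overlapping PBS, with a log2 fold change of 0.25 ± 0.16 (edgeR adjusted p = 0.38). Adrb1 was at 5.18, 6.32 and 7.45 CPM, with 1 library inside the range with PBS and 2 below it (-0.88 ± 0.40, adjusted p = 0.22). Set against the D3 DTR- BAT libraries in place of the PBS group, 4 of 6 members were called, beside 2724 of all 12098 genes tested. Calls among all genes thus rose as well. Adrb3 then was lower in the cold (-0.64, adjusted p = 0.0073), Adora1 was -1.96 (0.0022), Ffar4 2.42 (0.00050) and Hcar2 -4.88 (0.00036). The uncalled Adrb1 was 0.61 (adjusted p = 0.34) and Hcar1 -1.50 (0.33). The directions for Adrb3 and Adrb1 thus turned with the control group, and those for the other 4 did not.

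Of 7 other Gs-coupled receptors tested, 1 rose and 1 fell in cold BAT, Adora2a being the higher (2.42 ± 0.36, edgeR adjusted p = 0.0029). Of 14 G proteins and cyclases 5 rose and 0 fell, Gnb1, a G protein beta subunit, by 1.24 ± 0.14 (adjusted p = 0.00079). The kinase A and lipolysis list was split, with 3 higher and 3 lower of 13. Pnpla2, the first lipase of lipolysis, fell by 0.96 ± 0.16 (adjusted p = 0.0046) on the log2 scale. Of 6 phosphodiesterases 0 rose and 1 fell.

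Cold and CL were also set against each other in DTR- BAT, with the same limits on labels, and this comparison shares libraries with both of the preceding ones. Here 4 of 6 members were called, against 32.2% of all genes. Adrb3 was 4.75-fold higher in the cold than with CL (2.25 ± 0.21, edgeR adjusted p = 9.6e-06) and Adrb1 lower (-1.72 ± 0.33, adjusted p = 0.0019). Ffar4 was lower (-1.16 ± 0.19, adjusted p = 0.00057), as was Hcar2 (-3.63 ± 0.98, adjusted p = 0.014). The Hcar2 call was lost without CL library 3 (adjusted p = 0.079) or cold library 2 (0.057), and without cold library 3 the value was -5.20. Hcar1 (1.09 ± 0.90, adjusted p = 0.40) and Adora1 (0.63 ± 0.34, adjusted p = 0.18) overlapped between the groups. Of 13 genes of protein kinase A and lipolysis 3 were higher and 7 lower in the cold, and of 6 phosphodiesterases 1 was higher and 4 lower.

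DTR+ and DTR- mice were compared for their levels under CL. The CL fit held no DTR+ group with PBS. A changed response to CL therefore cannot be told apart from a difference between genotypes that is present without it. Adrb3 and Ffar4 were lower in BAT of DTR+ mice by about the same factor, and Hcar2 was higher without passing the test. Of the 6 members 2 were called, against 7.72% of all genes. Adrb3 was at 38.1, 54.3 and 61.5 CPM in DTR- and at 24.5, 20.1 and 26.8 in DTR+. The ranges were apart, and the log2 fold change was -1.12 ± 0.20 (edgeR adjusted p = 0.0062), 2.18-fold lower. Its level was thus lowest of all 16 groups where CL and the toxin receptor were combined.

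Ffar4 stood at 403, 463 and 519 CPM in DTR- and at 241, 190.1 and 206 in DTR+. These groups did not overlap, and Ffar4 fell by 1.13 ± 0.19 on the log2 scale (edgeR adjusted p = 0.0045), 2.19-fold. Fitted together with all whole-fat libraries, its adjusted p was 0.057. Even so, the DTR+ libraries lay above PBS (76.7, 101 and 120.3), which was DTR-; that comparison was not tested.

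Hcar2 was at 4.72, 2.57 and 7.11 CPM in DTR- and at 18.8, 7.61 and 17.7 in DTR+, with DTR+ library 2 only just above the highest DTR- library. At 2.98-fold (1.58 ± 0.46) its edgeR adjusted p was 0.052, and it passed in 6 of 13 alternative settings. Hcar1 (0.21 ± 0.47), Adora1 (-0.12 ± 0.30) and Adrb1 (-0.35 ± 0.37) overlapped between genotypes, with adjusted p of 0.84, 0.86 and 0.60. Macrophage markers rose in 10 of 11 genes, from 158 to 174 CPM summed to 892 to 1060. The IFNg response list went from 128 to 188 CPM to 1887 to 2993, with 4 of 8 genes higher. Summed adipocyte markers overlapped (21332 to 26499 and 22224 to 23967). The part of other cells in these differences was not tested.

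In the rest of the pathway, of 9 other Gs-coupled receptors 1 rose and 0 fell, and of 4 other Gi-coupled receptors 0 rose and 1 fell in these DTR+ mice: Ptger3, a prostaglandin E2 receptor, by 1.52 ± 0.33 (edgeR adjusted p = 0.014). Of 13 G proteins and cyclases 2 rose and 2 fell, and of 6 receptor kinases and arrestins 0 were called. Of 13 genes of protein kinase A and lipolysis 0 rose and 3 fell: Plin1 (-1.28 ± 0.24, adjusted p = 0.0066), Prkaca, a catalytic subunit of protein kinase A (-0.86 ± 0.20, 0.021), and Mgll, monoglyceride lipase (-0.71 ± 0.18, 0.031). The median of that list was -0.65, against 0.01 over all genes. Pde4a fell by 1.90 ± 0.37 (adjusted p = 0.0090), the 1 of 6 phosphodiesterases called.

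Without CL, DTR+ and DTR- mice given toxin were compared in BAT. In D4, Hcar2 rose and the other members did not pass, so that 1 of 6 was called, against 16.1% of all genes. Hcar2 was at 23.0, 21.3, 15.0 and 17.8 CPM in DTR- and at 25.7, 30.8, 31.2 and 32.6 in DTR+. All DTR+ libraries were above all DTR- libraries, and the log2 fold change was 0.70 ± 0.17 (edgeR adjusted p = 0.0099), 1.62-fold. In a single fit over all whole-fat libraries its adjusted p was 0.13. Macrophage markers rose with it in 8 of 11 genes (144 to 354 CPM summed against 535 to 1179), as did 3 of 3 neutrophil genes tested, and their part in it was not tested.

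Ffar4 was at 42.1, 39.4, 39.0 and 38.7 CPM in D4 DTR- BAT and at 36.9, 17.8, 22.5 and 30.0 in DTR+. The ranges were apart by a small gap, and the log2 fold change of -0.52 ± 0.19 did not pass (edgeR adjusted p = 0.072). Adora1 was at 200.1, 191, 191 and 188 CPM against 204, 221, 216 and 214, also without overlap but a difference of only 0.20 ± 0.09 (adjusted p = 0.13). With library totals, which shift the median of all genes by 0.25, Adora1 was called (0.45, adjusted p = 0.0023). Adrb3 overlapped, at 335, 399, 353 and 255 against 164, 256, 330.3 and 186 CPM (-0.46 ± 0.23, adjusted p = 0.23), with DTR+ library 3 high and DTR- library 4 low for their groups. Without DTR+ library 3 it was -0.68 (adjusted p = 0.026). Brown adipocyte markers fell in 5 of 8 genes (13051 to 15579 CPM summed in DTR-, 8012 to 9441 in DTR+), and their part in these differences was not tested.

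In D3 BAT Hcar2 was again higher without overlap, and no member passed. By edgeR 0 of 6 were called, against 3.52% of all genes. At an unadjusted p under 0.05 there were 3, beside 2086 of all 11666 genes tested, and with DESeq2 0. Hcar2 was at 10.98, 13.1 and 11.1 CPM in DTR- and at 18.2, 20.9 and 20.4 in DTR+. The groups did not overlap, and the difference was 0.78 ± 0.21 (adjusted p = 0.054), 1.72-fold. Macrophage markers summed to 145 to 252 CPM in DTR- and 338 to 384 in DTR+, with 1 of 10 genes called.

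Adrb1 showed the widest D3 difference, from 5.38, 3.90 and 2.85 CPM to 7.65, 8.55 and 10.01, again without overlap (1.16 ± 0.34, edgeR adjusted p = 0.082). In D4 the same gene overlapped fully (0.11 ± 0.33, adjusted p = 0.88). D3 Ffar4 was at 23.5, 50.0 and 44.2 CPM against 26.3, 20.9 and 28.6 (-0.62 ± 0.25, adjusted p = 0.22). Here DTR- library 1 was the low one, and without it the difference was -0.88 (adjusted p = 0.022). With library totals, Hcar2 (0.99, adjusted p = 0.018) and Adrb1 (1.37, adjusted p = 0.034) were called in D3, on a scale that moves the median of all genes by 0.20.

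The wider pathway was also compared between DTR+ and DTR- BAT. In D4, 0 of 7 other Gs-coupled receptors passed, and 1 of 3 other Gi-coupled receptors fell, Ptger3, by 1.23 ± 0.31 (edgeR adjusted p = 0.035). Mgll fell by 0.61 ± 0.11 (adjusted p = 0.0017) and Lipe, hormone-sensitive lipase, by 0.38 ± 0.08 (adjusted p = 0.0051), the 2 called of 13 genes of protein kinase A and lipolysis. Of 6 phosphodiesterases Pde4b rose, by 1.05 ± 0.22 (adjusted p = 0.0045), and by 1.41 ± 0.27 (adjusted p = 0.013) in D3. Arrb1, beta-arrestin 1, which binds active receptors, rose by 0.81 ± 0.14 (adjusted p = 0.0011) among 6 receptor kinases and arrestins in D4. Of 13 G proteins and cyclases 2 rose and 0 fell in D4: Adcy7, an adenylyl cyclase (2.06 ± 0.37, adjusted p = 0.0014), and Gnai2, a Gi subunit (0.59 ± 0.14, 0.0085). Pde4b was the 1 gene of these pathway lists called in D3 BAT.

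In SAT no member was called between the genotypes. In D4, edgeR called 0 of 5 tested members, against 0.314% of all genes. There were 2 at an unadjusted p under 0.05, beside 944 of all 12728 genes tested, and 0 by DESeq2. Ffar4 was at 29.8, 42.7, 40.6 and 33.6 CPM in DTR- and at 46.4, 50.0, 44.8 and 44.3 in DTR+. All DTR+ libraries were higher, by 0.35 ± 0.14 (adjusted p = 0.59). Adrb3 overlapped, at 501, 322, 422 and 418 against 554, 638, 452 and 485 CPM (0.37 ± 0.15, adjusted p = 0.59). Adrb1, at 46 counts over 1 group and 26 over the other, was too low to be tested.

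In D3 SAT, 0 of 5 members were called, against 0% of all genes. At an unadjusted p under 0.05 edgeR had 629 genes, 1 of them a member, and DESeq2 called 19 genes and 0 members. That member was Hcar2, at 40.7, 30.5 and 47.1 CPM in DTR- and 90.8, 63.8 and 46.7 in DTR+ (0.76 ± 0.24, adjusted p = 0.86). The groups overlapped by 1 library of each. Macrophage markers in SAT overlapped between genotypes at both D3 (1012 to 1881 and 1134 to 1516 CPM) and D4 (890 to 2281 and 1255 to 2030).

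Whether the difference between genotypes itself differed between depots was tested as an interaction. In D4 1 of 6 members, Ffar4, was called, against 4.11% of all genes. It was lower in DTR+ than in DTR- mice in BAT and higher in SAT (-0.90 ± 0.25, edgeR adjusted p = 0.045). The call was not stable: in 17 of 23 alternative settings the adjusted p was 0.05 or more, while the value stayed between -1.07 and -0.62. Adrb3 was next (-0.86 ± 0.28, adjusted p = 0.094). In D3 0 of 6 were called, against 0.0675% of all genes, and 0 by DESeq2. At an unadjusted p under 0.05 there were 0, beside 1459 of all 13325 genes tested. There Ffar4 was -0.48 ± 0.31 (edgeR adjusted p = 0.62).

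PC61 against isotype in wild-type mice addressed Treg cells by another route, with no toxin. Hcar2 was the 1 of 6 members called, against 0.651% of all genes. It was at 8.76, 8.92 and 7.57 CPM with isotype and at 28.8, 24.0 and 32.0 with PC61. The groups were far apart, and Hcar2 rose by 1.78 ± 0.23 (edgeR adjusted p = 0.0024), 3.44-fold, and passed in all 13 alternative settings (1.68 to 1.92). Macrophage markers were at 89 to 123 CPM summed with isotype and 132 to 155 with PC61, with 0 of 9 genes called, and their part in the Hcar2 rise was not tested. Of the IFNg response genes 0 of 8 were called.

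Hcar1 was at 34.5, 37.6 and 63.2 CPM with isotype and at 96.8, 73.2 and 118 with PC61, without overlap. At 1.13 ± 0.25 it did not pass (edgeR adjusted p = 0.096), and it passed in 6 of 13 alternative settings. Adrb3 was at 210.4, 215 and 240.5 CPM against 352, 214 and 532 (0.76 ± 0.33, adjusted p = 0.50), with PC61 library 2 at the level of the controls. Ffar4 was uneven within both groups, at 160.4, 24.0 and 28.6 with isotype and 28.3, 84.5 and 18.3 with PC61 (-0.66 ± 1.10, adjusted p = 0.88). The high library of each, isotype 1 and PC61 2, was also the highest of its group in skeletal muscle genes (1484 and 6507 CPM summed). Without both (chosen after the values were seen) 3 members were called: Adrb3 (0.99, edgeR adjusted p = 0.0064), Hcar1 (1.13, 0.013) and Hcar2 (1.92, 0.0020). Calls among all genes rose as well, from 75 to 176, with fewer libraries left in each group.

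In DTR+ mice, blockade of IFNg was compared with isotype. The IFNg response genes fell in 8 of 8 (797 to 953 CPM summed with isotype, 275 to 293 with the antibody). Of the receptors 0 of 6 were called by edgeR, against 0.541% of all genes, and 0 by DESeq2. At an unadjusted p under 0.05 edgeR had 1 member, beside 982 of all 12017 genes tested. Hcar2 overlapped, at 7.12, 13.8 and 17.7 CPM with isotype and 14.6, 17.2 and 11.3 with the antibody (0.15 ± 0.31, adjusted p = 0.94). Adrb3 was at 231, 204 and 147 CPM with isotype and at 292, 351 and 234 with the antibody. The ranges just cleared each other, and 0.56 ± 0.19 did not pass (adjusted p = 0.50). In this comparison, in PC61 and in both comparisons of genotypes in SAT, 0 genes of the 6 pathway lists were called.

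Of the 6 members, Hcar2 was the one that recurred. DTR+ or PC61 was compared with controls in BAT in D4, D3, CL and PC61, which share no libraries with each other. Ranges of Hcar2 did not overlap in 4 of 4, and it was higher with DTR+ or PC61 in each. How many of all genes did the same was not counted, so whether this is unusual cannot be said. In CL the gap was narrow, from 7.11 CPM in DTR- to 7.61 in DTR+. Hcar2 passed edgeR's test in D4 and PC61, but not in D3 (adjusted p = 0.054) or CL (0.052). Ffar4 was lower in D4 and in CL without overlap and overlapped in D3 and PC61. Adrb3 was lower without overlap in CL alone of the 4.

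**Figure D3:**
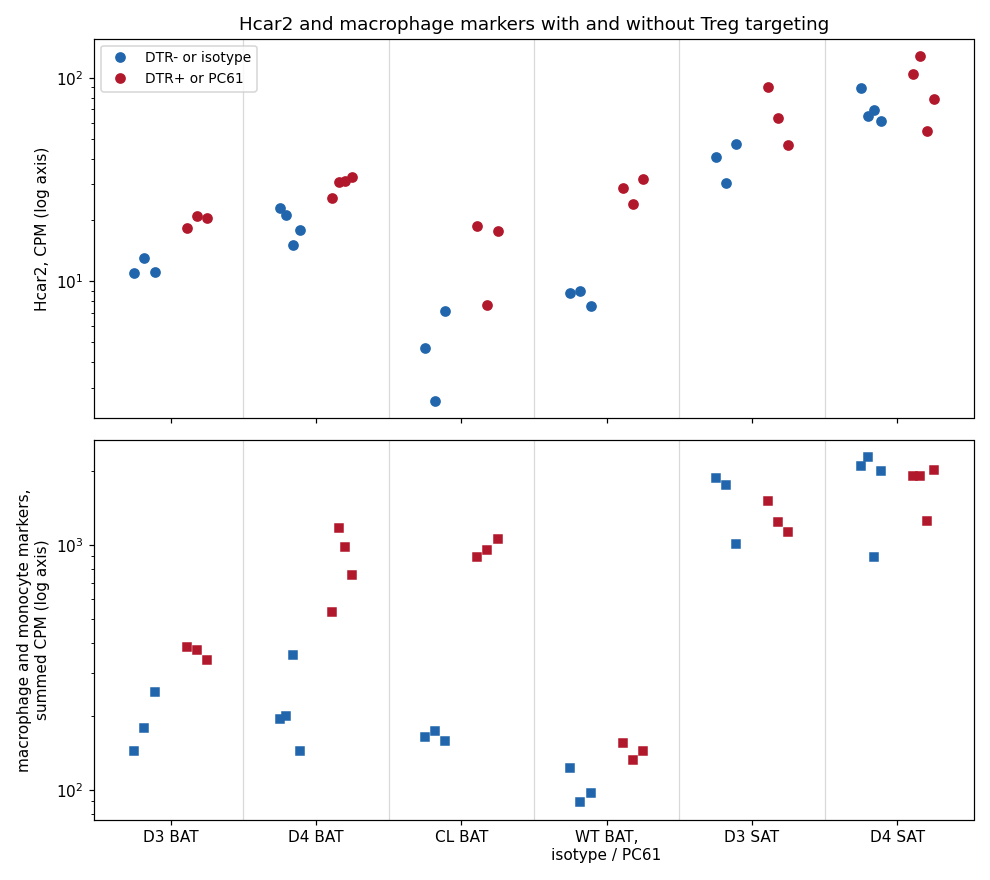
Hcar2 in CPM (upper panel, log axis) and the summed CPM of 11 macrophage and monocyte markers (lower panel, log axis) in each library, with controls in blue and Treg-targeted groups in red, for 4 comparisons in BAT and 2 in SAT. In BAT the red points of Hcar2 lie above the blue in all 4, from 24.0 to 32.0 against 7.57 to 8.92 CPM for PC61, where the markers run from 132 to 155 against 89 to 123.

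How the receptors varied among replicates was examined with each library expressed as its difference in log2 CPM from its group mean. In SAT (14 libraries in 4 groups), Adrb3, Hcar1 and Hcar2 varied together. Adrb3 and Hcar1 had Pearson r = 0.79 and Spearman rho = 0.89 (permutation within groups, p = 0.00013 and 9e-05, adjusted over 47 pairs 0.0061 and 0.0042). Adrb3 and Hcar2 had r = 0.82 and rho = 0.81 (p = 0.0012 and 0.0028, adjusted 0.014 and 0.033), and Hcar1 and Hcar2 r = 0.80 and rho = 0.87 (p = 0.00042 and 0.0017, adjusted 0.0099 and 0.026). Without the 2 libraries farthest on the first gene, r was 0.82, 0.89 and 0.77. So where 1 of these receptors was high in a piece of subcutaneous fat, the other 2 tended to be high as well.

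The same 3 genes had r of 0.20, 0.46 and 0.23 with summed adipocyte markers and of -0.43, -0.40 and -0.54 with skeletal muscle genes, and none of those passed (permutation p adjusted 0.39 or more for each, r and rho). In BAT (38 libraries in 12 groups) the pair that passed was another. Ffar4 and Adora1 ran opposite, with r = -0.51 and rho = -0.61 (permutation p = 0.00078 and 0.00035, adjusted 0.012 and 0.0082), and r = -0.43 without the 2 farthest libraries. With summed adipocyte markers Ffar4 had r = 0.51 and with skeletal muscle genes 0.42 (permutation p adjusted 0.26 for each). For Adora1 these were -0.19 and -0.20 (adjusted 0.57 for each). The part of tissue make-up in the Ffar4 and Adora1 pair was not tested. Adrb3 and Hcar1 had r = 0.14 in BAT (adjusted 0.72), and Adrb3 and Hcar2 0.19 (adjusted 0.57). Whether the depots differ in these relations was not tested. All members of a library share its depth and its tissue piece, and the role of either was not tested.

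**Figure D4:**
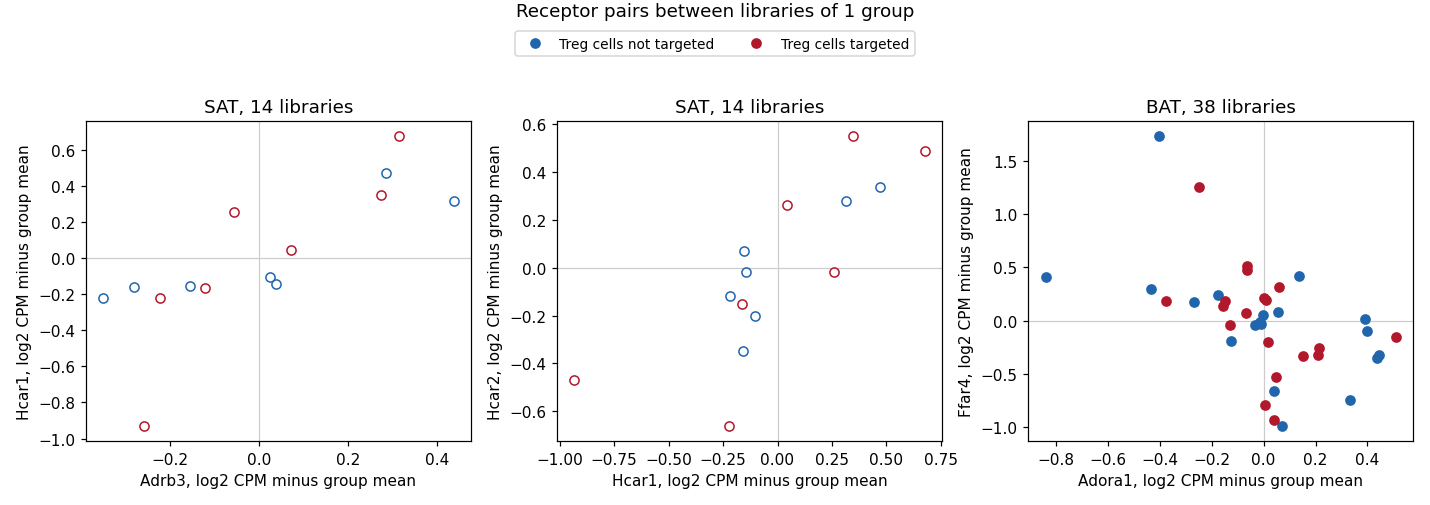
Difference of each library from its group mean (log2 CPM, both axes), 1 point per library, for Adrb3 and Hcar1 and for Hcar1 and Hcar2 in SAT and for Adora1 and Ffar4 in BAT. The SAT points rise together (r = 0.79 and 0.80) and the BAT points run down (r = -0.51).

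Over the 12 BAT group means, as a description with no test, Hcar1 and Adora1 ran in parallel (r = 0.92), as did Adrb3 and Adora1 (0.83), and Ffar4 ran against Adora1 (-0.91) and Hcar1 (-0.82). The 12 points share the tissue and the library method, and some come from the same experiment. Among 9179 genes with at least 5 CPM on average in BAT, the genes most like each member over the same means were Tbc1d8 for Adrb3 (r = 0.98), Sox6 for Hcar1 (0.98), Rdh13 for Ffar4 (0.97), Bahcc1 for Adora1 (0.99), B3galt2 for Hcar2 (0.95) and Cntfr for Adrb1 (0.95). Each is the highest of 9179 over 12 points, so the choice itself makes r high. CL DTR- and CL DTR+ BAT had the lowest means of Adrb3, Hcar1 and Adora1, and their weight in these r was not tested.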

How the data were processed

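RNA was measured in whole brown and subcutaneous fat. Per the labels' protocols, libraries were made from 2 ng of RNA by Smart-seq2 with oligo(dT) priming and Nextera XT. The authors deposited read counts for each gene, obtained with STAR 2.7.3a and featureCounts on mm10, per the submitters' processing notes. Positions come from GENCODE M21.

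Each comparison was filtered with filterByExpr, scaled by TMM and fitted across all genes with edgeR 4.0.16 (robust quasi-likelihood, R 4.3.3), with Benjamini-Hochberg adjustment over all genes tested. A gene was called at an adjusted p under 0.05. Each SE was obtained by dividing the absolute log2 fold change by the root of the F statistic. CL comparisons used 1 fit of 3 groups, depot and interaction comparisons 1 fit of 4 groups, and the rest 2 groups. Settings tried were DESeq2 1.42.0, RLE factors, library totals, no filter, a replicate block, 1 fit over all whole-fat libraries, other cold controls, and leaving out libraries. Within-group correlations used 100000 permutations. In counts simulated for the 14 comparisons, recovery was 13 to 57% at a log2 change of 1 and 67 to 92% at 2. Of the genes called there, 1.64% (D3 depot) to 10.6% (D3 SAT) were unchanged ones, with 8.16% for PC61 and 8.08% for cold against PBS.

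All members, and from the pathway lists up to 3 called genes with the smallest p, are named. The members and lists were chosen with earlier results of these data known. Some called genes of the pathway lists are left out and not reported.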

Additional observations from a re-analysis of the deposited data

Results flagged for a closer look

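The 6 genes were checked in each of the 4 groups of 4 libraries, 24 sets in all, for a value far from the other 3, which chance gives in about 1 set in 20. The value that stood out was Hcar1 in library 1 of D4 DTR- SAT, at 217 CPM beside 135, 142 and 146.

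Ffar4 differed between depots in its D4 difference between genotypes (interaction -0.90 on the log2 scale, edgeR adjusted p = 0.045), a call lost in 17 of 23 alternative settings. Its ranges did not overlap between genotypes in 3 comparisons that moved in opposite directions: -0.52 in D4 BAT, -1.13 in BAT with CL and 0.35 in D4 SAT. Between CL BAT and SAT the difference was not tested.

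Sorted Treg cell libraries, which enter no comparison here, were checked against a set floor of 3 counts. Above it were 5 counts of Adrb1 in library 2 from SAT, 11 of Adora1 in library 1 from SAT and 7 of Hcar2 in library 3 from spleen. Summed adipocyte markers were at 30.7 to 41.5 CPM in the sorted libraries from SAT and 18.3 to 23.6 from spleen. Which cells these counts came from was not tested.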

How the results depend on the processing

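Of 1161 values of single receptors recomputed, 1031 kept their direction and their side of the threshold, 34 lost a call, 43 gained one and 53 changed sign. Of the values called as reported, 0 changed sign. Adrb1 in SAT rests on 26 to 46 counts a D4 group, and Hcar2 in the cold on 9.

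With 1 fit over all whole-fat libraries, called members went to 0 in D4 BAT and in the D4 interaction. Called genes went to 2 in D4 SAT, 218 in D3 BAT, 2 in the D3 interaction, 5817 for CL, 3232 for DTR+ with CL, 3 for PC61, 0 for anti-IFNg, 2641 for cold against PBS and 6029 for cold against CL. D3 BAT Adora1 became -0.021 and D3 interaction Hcar2 -0.0041. With D3 DTR- controls for cold, 2724 genes and 4 members were called, with Adrb1 at 0.61 and Adrb3 at -0.64.

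DESeq2 called 93 genes in D4 SAT, 19 in D3 SAT, 982 (2 members) in the D4 and 142 in the D3 interaction, 1581 for DTR+ with CL, 231 (3 members) for PC61 and 1603 for cold. With it and with RLE factors D3 BAT Adora1 was -0.010 in both, and D3 interaction Hcar2 was -0.020 and -0.019. Library totals gave 2 members in D4 BAT, 628 genes and 2 members in D3 BAT, 1073 genes and 0 members in the D4 interaction (Hcar1 0.017), 62 genes in the D3 interaction, and D4 depot Ffar4 at -0.33. Totals moved the median of all genes by 0.29 and 0.20 in the interactions and 0.10 for PC61.

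Without the filter, genes called were 155 in D4 SAT, 788 (2 members) in D3 BAT, 72 (1) in D3 SAT, 887 (2) and 273 in the D4 and D3 interactions (D3 Hcar2 -0.012), 1552 for DTR+ with CL, 347 (2) for PC61, 172 (1) for anti-IFNg and 1744 for cold, with 2 members in D4 BAT. Both D4 SAT libraries numbered 3, which stood apart in lymphocyte or skeletal muscle genes, left out gave 71 genes in D4 SAT (Hcar1 0.0082) and 0 members in the D4 interaction (Adrb1 0.23). Isotype 1 and PC61 2 left out gave 176 genes and 3 members. These 2 omissions and library totals were chosen after seeing the data.

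With the replicate number as a block, D4 BAT had 3 called members, the D4 interaction 0 and PC61 2, and called genes were 11 in D3 SAT, 5 in the D3 interaction and 658 for cold. Deviations of same-numbered libraries correlated between -0.32 and 0.24, and not all over 0.1, except D3 DTR+ BAT with SAT (0.11 to 0.23), so the numbers were not taken as pairs. No paired analysis was possible for anti-IFNg because its groups share fewer than 2 numbers.

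Leaving out 1 library at a time, called genes ranged from 310 to 954 for DTR+ with CL, 118 to 391 in D3 BAT, 0 to 10 in D3 SAT, 23 to 52 in D4 SAT, 309 to 679 and 4 to 63 in the D4 and D3 interactions, 11 to 100 for PC61, 40 to 61 for anti-IFNg and 499 to 1046 for cold. Called members ranged from 0 to 1 in D3 BAT and the D4 interaction, 1 to 2 in D4 BAT and 1 to 3 for PC61. Signs changed only among uncalled receptors: DTR+ with CL Adora1 (-0.43 to 0.087) and Hcar1 (-0.22 to 1.31); D3 BAT Adora1 (-0.11 to 0.075); D3 SAT Adora1 (-0.25 to 0.12) and Hcar1 (-0.0022 to 0.71); D3 depot Adrb3 (-0.21 to 0.17) and Ffar4 (-0.29 to 0.17); D3 interaction Adora1 (-0.12 to 0.24), Adrb1 (-0.36 to 0.88), Hcar1 (-0.10 to 0.60) and Hcar2 (-0.21 to 0.28); D4 BAT Adrb1 (-0.17 to 0.26); D4 SAT Adora1 (-0.16 to 0.090) and Hcar1 (-0.14 to 0.17); PC61 Ffar4 (-1.57 to 0.77); anti-IFNg Ffar4 (-0.27 to 0.26) and Hcar2 (-0.15 to 0.44); cold against CL Hcar1 (-0.30 to 2.14). Where a setting changed a call or a sign, the cause was not tested.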

Other observations

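In the sorted Treg cell libraries, Ffar4 had 5 counts over the 2 libraries from BAT, 1 over the 3 from SAT and 1 over the 3 from spleen. Adrb3 had 0, 3 and 0 counts in the same order, and Hcar1 had 1, 0 and 1.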
